A study of Mus musculus with 5 samples.

Results

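The myelin and oligodendrocyte genes described here were 9 listed symbols, Mbp, Mog, Mag, Mobp, Cnp, Cldn11, Mal, Opalin and Ermn. All 9 were found among the 23420 gene symbols of the data, and all 9 were among the 13550 genes with a mean of at least 5, called expressed genes here. Myelin is the sheath that oligodendrocytes wrap around axons in the central nervous system, and it lets action potentials travel quickly and feeds the axon it covers. Mature oligodendrocytes arise from precursor cells that are spread through the adult brain, and the transcription factors Olig2, Sox10 and Myrf drive the steps of that path. In the dentate gyrus (DG) of the hippocampus, myelinated axons run mostly through the hilus and the molecular layer, while the granule cell bodies lie in a layer with little myelin.

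The data came from 5 RNA-Seq libraries of the whole DG, micro-dissected from male wild-type CD1 mice labelled as 4 months old, with 1 library per group and no replicate library. For 4 weeks, LD mice lived alone with a locked disk, RUN mice lived alone with a disk they could run on, and CE mice (complex environment) had a locked disk, cage mates and tunnels. The RNA in the LD, CE and RUN libraries was pooled from 8 mice each. For L-RUN and H-RUN, it was pooled from the 4 RUN mice with the lowest and the 4 with the highest running distances. CE thus differed from LD and RUN in social housing as well, and CD1 is an outbred strain, so pools of different mice also differ in genotype. Values are regularized log (rlog) values on the log2 scale, in which a difference of 1 is a doubling. Sequencing depth is unknown, and with 1 library per group no test of a difference between groups can be made. In dissected tissue, fewer oligodendrocytes and less RNA per oligodendrocyte cannot be told apart.

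The error of a value could be judged only from RUN, whose mice were those of the other two runner libraries together. Over the expressed genes, RUN differed from the linear average of L-RUN and H-RUN with an SD of 0.0316, which gives a technical SD of 0.0365 for a difference between 2 libraries (0.0222 for Mbp and up to 0.0473 for the other members, by decile of expression). It covers library preparation and sequencing but not the spread between mice. For the 9 genes, this residual lay between -0.03 for Mal and 0.02 for Mag, and RUN held the middle place among the runner libraries in 9 of 9 genes, against 58.3% of expressed genes. That place follows from the pooling wherever L-RUN and H-RUN are well apart, so it is not a separate result.

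All 9 members were expressed, at widely differing levels, and which cells made their RNA was not tested. Mbp, which encodes the basic protein that holds the cytoplasmic faces of compact myelin together, had a mean of 14.19, and 1.02% of expressed genes had a higher mean. Divided by the length of the longest transcript in kilobases, the mean levels ran from 11.93 for Mbp and 9.65 for Cnp to 7.38 for Ermn and 5.03 for Opalin on the log2 scale, with the other 5 genes between 7.69 and 8.68.

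The promoters of the members are described because factors of the Myrf and Sox families drive myelin genes. RefSeq promoter sequences (GRCm38.p6) were found for 8 of the 9 genes. The 250 bases before the most upstream start were searched on both strands for CTGGCAC and CTGGTAC, the letters that Myrf reads, and 3 of 8 members (Mog, Mag and Cnp) held them, against 5.88% of the 27025 genes with a window. The letters ACAAAG and ACAATG, read by Sox factors, were in 5 of 8 members (Mag, Mobp, Cnp, Opalin and Ermn), against 25.4% of genes, and Mobp held 6 matches. The E-box letters CAGCTG and CATCTG, which Olig2 can read, were in 1 of 8 members (Opalin), against 25.3% of genes. A match is a stretch of letters and not a proven site. The 3 members with the Myrf letters are shown 5′ to 3′, with Ermn, whose values departed most from those of the other members. Capitals mark the Myrf and Sox letters, on either strand.
Mog (chr17:37023399-37023648, minus strand): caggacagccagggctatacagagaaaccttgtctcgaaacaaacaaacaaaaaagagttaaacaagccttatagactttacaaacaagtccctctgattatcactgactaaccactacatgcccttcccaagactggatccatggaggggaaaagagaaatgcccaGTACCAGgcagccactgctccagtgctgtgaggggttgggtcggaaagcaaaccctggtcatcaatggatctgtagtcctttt
Mag (chr7:30914923-30915172, minus strand): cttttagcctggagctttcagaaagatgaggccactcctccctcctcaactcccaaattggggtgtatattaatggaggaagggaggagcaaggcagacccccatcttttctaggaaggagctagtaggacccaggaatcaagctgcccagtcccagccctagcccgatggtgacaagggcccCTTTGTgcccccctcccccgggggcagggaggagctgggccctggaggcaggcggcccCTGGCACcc
Cnp (chr11:100574689-100574903, plus strand): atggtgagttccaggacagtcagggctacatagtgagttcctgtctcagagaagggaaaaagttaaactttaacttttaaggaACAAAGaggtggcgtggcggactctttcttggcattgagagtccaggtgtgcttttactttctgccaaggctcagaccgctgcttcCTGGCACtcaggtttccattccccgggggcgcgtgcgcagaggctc
Ermn (chr2:58052865-58053114, minus strand): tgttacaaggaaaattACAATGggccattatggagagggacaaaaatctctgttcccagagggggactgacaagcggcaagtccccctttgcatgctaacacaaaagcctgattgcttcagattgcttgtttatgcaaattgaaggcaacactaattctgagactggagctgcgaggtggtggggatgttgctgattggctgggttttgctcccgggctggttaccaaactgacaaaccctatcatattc
The Cnp stretch ends at 215 bases, where the first annotated exon begins. The Mag promoter had its Myrf letters next to the start, the first of them 9 bases upstream, while in Mog and Cnp they began 83 and 81 bases upstream. These distances count from the RefSeq start at the end of the 250 bases, which for Cnp lies past the end of the stretch shown.

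All 9 genes were lower in L-RUN than in H-RUN, against 51.4% of expressed genes, and by nearly the same amount. The difference lay between -0.18 and -0.13 on the log2 scale, with a median of -0.16 (a change of -10.3%), and an SD over the 9 genes of 0.0184, below the technical SD of a single gene's difference. By comparison, the median over expressed genes was -0.003 and the SD over them 0.104. No member passed the study's cut-off of 0.3 in either direction, which 1.54% of expressed genes did. A cut-off of 0.1, chosen after the values were seen, was passed downwards by 9 of 9 members and by 14.0% of expressed genes. Likewise, 9 of 9 were lower by at least 2 technical SD, against 21.4% of expressed genes. The difference was thus small but alike in every member, and it has no replicate check.

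**Figure D1:**
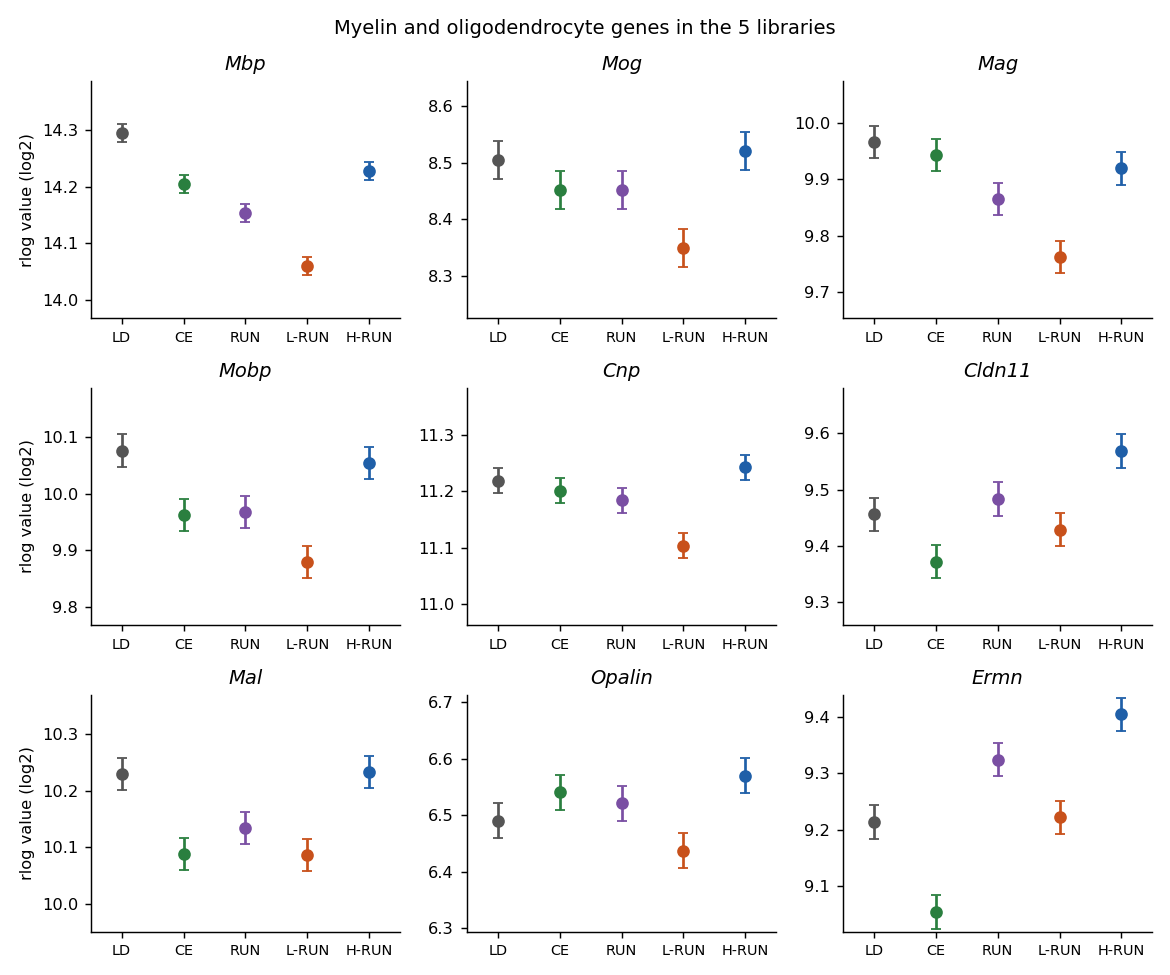
The rlog value (log2) of each of the 9 genes in the 5 libraries, 1 point per library, with bars of 1 technical SD of a single library; every panel spans the same height. The L-RUN point lies below the H-RUN point in all 9 panels, and RUN lies between them.

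Among the genes of compact myelin, Mbp had rlog values of 14.06 in L-RUN, 14.15 in RUN, 14.21 in CE, 14.23 in H-RUN and 14.29 in LD. LD was highest and L-RUN lowest, 0.23 apart. In the deposited values, the change of -15.0% from LD to L-RUN (-10.6 technical SD) was the largest against LD of the 9 members. Only CE and H-RUN, 0.02 apart, did not differ by 2 technical SD as neighbours in that order. With the length trend removed, L-RUN minus LD was -0.19 for Mbp, against -0.23 for Mag. With quantile normalization it was -0.18 for Mbp, against -0.20 for Mag. Mobp, a small basic protein of compact myelin, read 9.88 in L-RUN, 9.96 in CE, 9.97 in RUN, 10.05 in H-RUN and 10.08 in LD. Its order was the same at both ends, with a change of -12.8% from LD to L-RUN, while CE and RUN, and H-RUN and LD, were not 2 technical SD apart.

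Mal encodes a proteolipid that sorts lipids and proteins to the myelin membrane. Its values were 10.09 in L-RUN, 10.09 in CE, 10.13 in RUN, 10.23 in LD and 10.23 in H-RUN. CE and L-RUN thus lay together at the low end, and LD and H-RUN at the high end, with a gap of 0.09 between RUN and LD. Cldn11 encodes the claudin that forms the tight junctions of the sheath. It read 9.37 in CE, 9.43 in L-RUN, 9.46 in LD, 9.48 in RUN and 9.57 in H-RUN. Here CE was lowest and H-RUN highest, H-RUN stood 8.08% above LD, and L-RUN minus LD was -0.03.

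Mag, a lectin on the membrane that faces the axon, had values of 9.76 in L-RUN, 9.87 in RUN, 9.92 in H-RUN, 9.94 in CE and 9.97 in LD. The change from LD to L-RUN was -13.1%, or -5.05 technical SD. Of the neighbours in that order, only L-RUN and RUN were 2 technical SD apart. Mog, found on the outermost layer of the sheath, read 8.35 in L-RUN, 8.45 in CE, 8.45 in RUN, 8.51 in LD and 8.52 in H-RUN. Again L-RUN alone was set apart from its neighbour, CE, by 2 technical SD. Cnp, the enzyme that keeps channels of cytoplasm open in the sheath, read 11.10 in L-RUN, 11.18 in RUN, 11.20 in CE, 11.22 in LD and 11.24 in H-RUN. L-RUN and RUN were the only neighbours at least 2 technical SD apart, and the change from LD to L-RUN was -7.67%.

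The remaining members mark the mature cell. Opalin, a glycoprotein of the oligodendrocyte membrane, read 6.44 in L-RUN, 6.49 in LD, 6.52 in RUN, 6.54 in CE and 6.57 in H-RUN. No neighbours in that order differed by 2 technical SD, although L-RUN minus H-RUN, its ends, came to -3.03 technical SD. Since rlog shrinks genes of low expression most, and 89.3% of expressed genes had a higher mean, its differences may be understated. Ermn encodes ermin, a protein that binds the actin skeleton of myelinating oligodendrocytes. Its values were 9.05 in CE, 9.21 in LD, 9.22 in L-RUN, 9.32 in RUN and 9.40 in H-RUN. Ermn in L-RUN was 0.01 from LD, H-RUN stood 14.1% above LD, and the change from LD to CE was -10.5%.

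Against LD, the members did not move as a block. In L-RUN, 8 of 9 were lower than in LD, against 50.7% of expressed genes. Of the lower members, Cldn11 and Opalin were less than 2 technical SD from LD. The members had a median of -0.14 and a range from -0.23 for Mbp to 0.01 for Ermn, and the SD over them was 0.0848. No member passed 0.3, against 3.13% of expressed genes, while 6 of 9 (Mbp, Mag, Mobp, Mog, Mal and Cnp) were lower by at least 0.1, against 20.5% of expressed genes. In H-RUN, 6 of 9 were higher, against 48.0% of expressed genes. Of the higher members, Mal, Mog, Cnp and Opalin were less than 2 technical SD from LD. With the length trend removed, 5 of 9 members were lower than in LD. The members had a median of 0.02 and a range from -0.07 for Mbp to 0.19 for Ermn, and none passed 0.3 (0.827% of expressed genes). In RUN, 6 of 9 were lower, against 50.7% of expressed genes. Of the lower members, Mog and Cnp were less than 2 technical SD from LD. The median of the members was -0.05, and none passed 0.3 (1.31% of expressed genes). L-RUN was the lowest of the 5 libraries for 7 of 9 members, against 28.1% of expressed genes, and CE for Cldn11 and Ermn. For Mal, Opalin and Cldn11, the lowest library was less than 2 technical SD below the next. The highest library was H-RUN for 6 members and LD for Mbp, Mag and Mobp, and the share of expressed genes was not computed for this. Only for Mbp and Cldn11 was the highest library at least 2 technical SD above the next. These comparisons share the LD library, and RUN shares its mice with L-RUN and H-RUN.

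In CE, 8 of 9 members were lower than in LD, against 50.8% of expressed genes, and the median of the members was -0.08. Of the lower members, Cnp, Mag and Mog were less than 2 technical SD from LD. With quantile normalization, 7 of 9 were lower. None passed 0.3, against 0.598% of expressed genes, and Ermn (-0.16), Mal (-0.14) and Mobp (-0.11) were lower by at least 0.1, against 14.0% of expressed genes. With the trend with GC content removed, CE minus LD became -0.08 for Ermn and -0.09 for Mag, from -0.02. The members differed more among themselves here than between L-RUN and H-RUN, with an SD over the 9 genes of 0.0665. Set directly against RUN, CE had a median of -0.001 over the members, 4 higher and 5 lower, and none passed 0.3, against 0.834% of expressed genes. Ermn stood out, at -0.27 (a change of -17.1%, -6.47 technical SD), and 0.399% of expressed genes had a lower value. The next lowest member was Cldn11, at -0.11, and the highest was Mag, at 0.08.

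**Figure D2:**
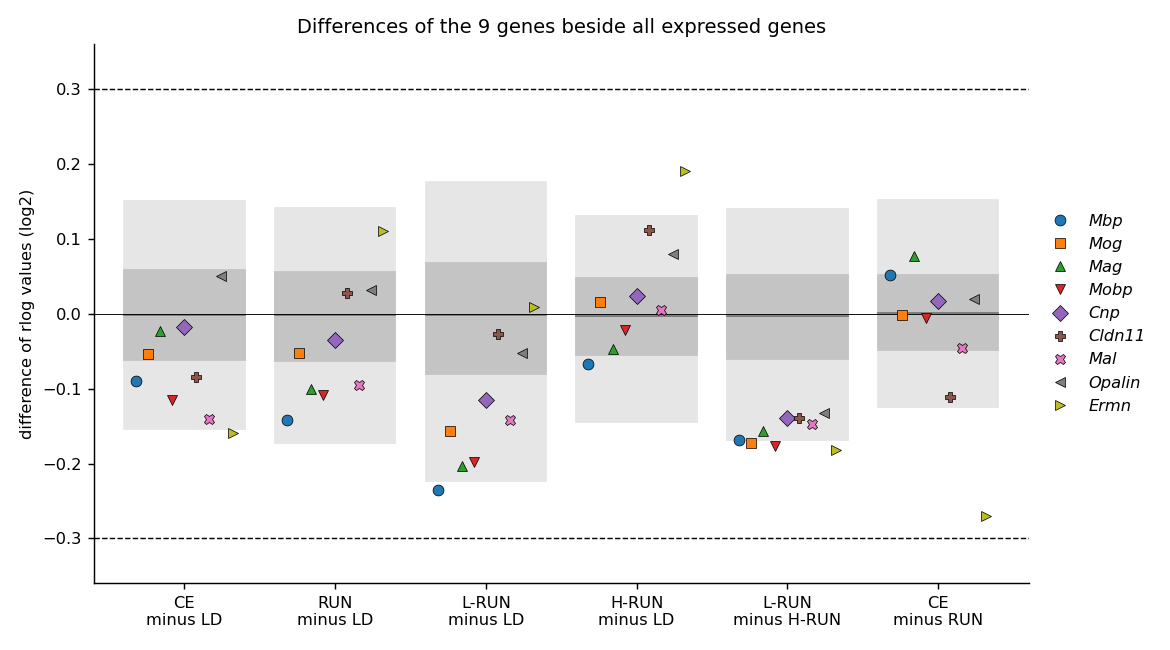
Differences of rlog values (log2) of the 9 genes, 1 symbol per gene, in 6 comparisons; the dark and light boxes hold the middle 50% and 90% of the expressed genes, with their median as a line, and dashed lines mark 0.3. The 9 symbols lie close together in L-RUN minus H-RUN, between -0.18 and -0.13, and spread out in the other comparisons, where Ermn reaches -0.27 in CE minus RUN.

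Differences between these libraries went with the length of transcripts, so the members were also set against that trend. Over 12765 expressed genes, which are not independent replicates, the Spearman coefficient between transcript length and L-RUN minus H-RUN was -0.34, and that for L-RUN minus LD was -0.51. The members, with a median length of 2794 bases, were shorter than expressed genes as a whole, with 3523. With the trend removed, all 9 stayed lower in L-RUN than in H-RUN, from -0.20 for Mog to -0.14 for Opalin, with a median of -0.17. Removal of the trend with GC content gave -0.18 to -0.12, and that with expression level gave -0.19 to -0.11. For RUN minus LD, removal of the length trend moved the median of the members from -0.05 to -0.10.

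**Figure D3:**
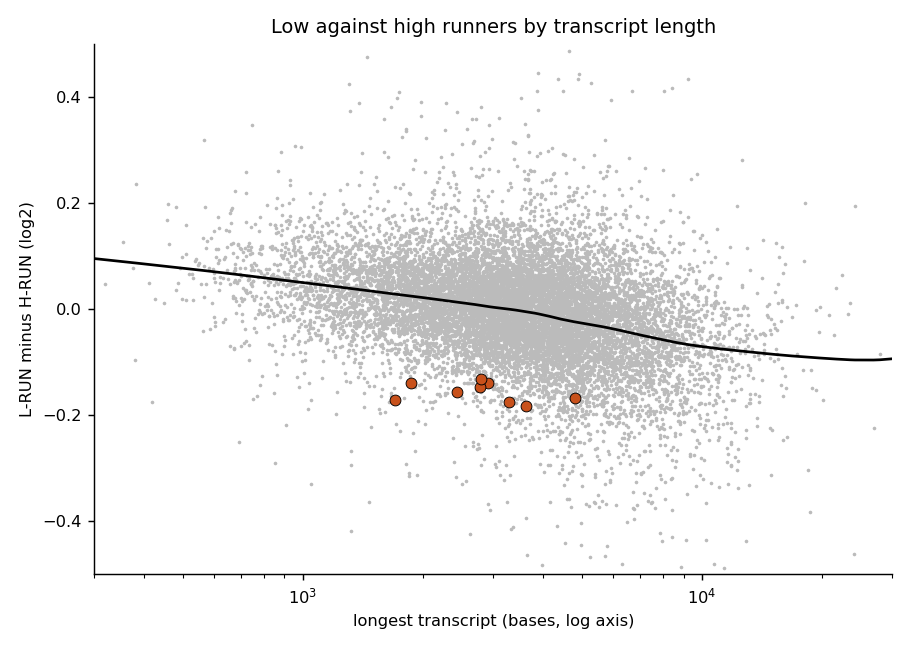
L-RUN minus H-RUN (log2) against the length of the longest transcript (bases, log axis) for expressed genes in grey, with a lowess curve, and the 9 members in orange; genes beyond 0.5 in size or outside the length range drawn are not shown. The curve falls with length, and the members lie between -0.18 and -0.13, all below it.

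Other genes of the lineage were read from lists of known genes. Of 20 expressed genes of mature oligodendrocytes and myelin, 16 were lower in L-RUN than in H-RUN and 4 higher, with a median of -0.05 and none past 0.3. Gsn, an actin-severing protein, was the highest at 0.16. Only Gpr37, a receptor of oligodendrocytes, passed 0.3 against LD, at -0.32 in L-RUN, with -0.12 in H-RUN. With the length trend removed, Gpr37 in L-RUN was -0.28, short of the cut-off. Against LD, Gsn was also the highest of the list in L-RUN (0.15) and Ppp1r14a in H-RUN (0.14), and Gpr37 was the lowest in both. Klk6 was below the expression minimum.

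Of 11 genes of myelin lipid synthesis, 7 were lower in L-RUN than in H-RUN, with a median of -0.09 and none past 0.3. Fa2h, which makes the hydroxylated fatty acids of myelin lipids, was lowest at -0.16, and Elovl1, which lengthens fatty acids, was highest at 0.12. Against LD, Elovl1 was also the highest of the list, at 0.21 in L-RUN and 0.09 in H-RUN. The enzyme of galactolipid synthesis Ugt8a read 8.83 in RUN, 8.84 in CE, 8.88 in L-RUN, 8.96 in H-RUN and 9.05 in LD, so that LD was highest.

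The transcription factors of the lineage had a median of -0.03 in L-RUN minus H-RUN, with 6 of 9 lower. With the length trend removed, their median was -0.06, as was that of the 20 other genes of mature oligodendrocytes and myelin. Myrf, which switches on myelin genes, was the lowest at -0.20 and Zfp488, a factor of oligodendrocyte maturation, the highest at 0.13. Myrf read 8.62 in L-RUN, 8.75 in RUN, 8.82 in CE, 8.82 in H-RUN and 8.85 in LD. Its lowest library was thus L-RUN, as for 7 of the members, and it also had the lowest difference from LD in L-RUN of the list (-0.23), where Zfp488 had the highest (0.12). In H-RUN minus LD, the ends of the list were Tcf7l2 (-0.07) and Olig1 (0.14). In CE minus LD, 6 of the 9 factors were higher and 3 (Zfp488, Myrf and Tcf7l2) lower, with a median of 0.07. The values ran from -0.13 for Zfp488 to 0.19 for Olig1, and Sox10 (0.18), Olig2 (0.18) and Sox8 (0.17) were next to the highest. Across expressed genes, CE minus LD moved with GC content, with a Spearman coefficient of 0.56. With that trend removed, Olig1, Sox10, Olig2 and Sox8 became 0.10, 0.08, 0.11 and 0.13, and the median of the list became 0.02. None of the 9 factors passed 0.3 in any of the 4 comparisons with LD.

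Of 10 expressed genes of precursors and newly formed oligodendrocytes, 8 were lower in L-RUN than in H-RUN, with a median of -0.10. Tnr, a matrix protein made by precursors and also by interneurons, passed 0.3, with 10.33 in L-RUN, 10.67 in RUN, 10.82 in CE, 10.89 in H-RUN and 10.98 in LD. The difference from LD was -0.66 in L-RUN and -0.31 in RUN, both past the cut-off, and -0.09 in H-RUN. With the length trend removed, Tnr was -0.51 in L-RUN and -0.20 in RUN, so that only L-RUN passed. The highest in L-RUN minus LD was Bmp4 (0.14), and in H-RUN minus LD Neu4 (0.18). Pdgfra, the growth factor receptor that marks precursors, read 9.92 in L-RUN, 9.93 in RUN, 10.02 in H-RUN, 10.07 in LD and 10.16 in CE. CE was the highest library for it, and CE minus RUN was 0.23. Enpp6, a marker of newly formed cells, was below the expression minimum at 4.84 to 4.88.

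**Figure D4:**
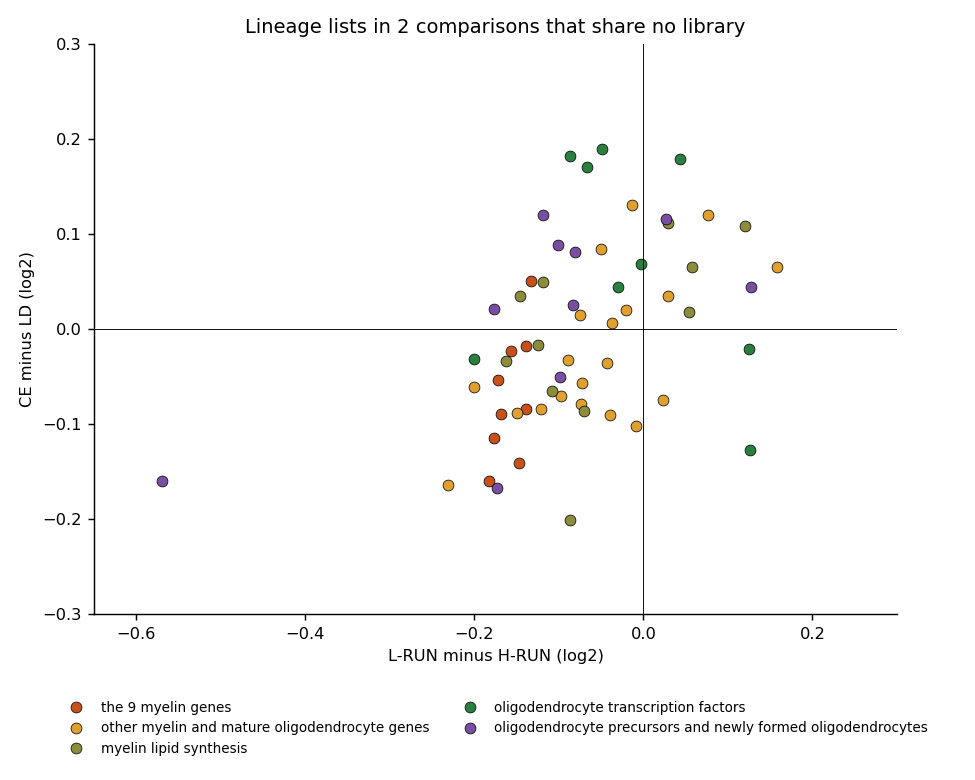
CE minus LD against L-RUN minus H-RUN (log2), which share no library, for the expressed genes of 5 lineage lists, 1 point per gene. The 9 members form a narrow band between -0.18 and -0.13 on the horizontal axis, while Olig1, Olig2, Sox10 and Sox8 lie between -0.09 and 0.04 there and at 0.17 to 0.19 on the vertical axis; Tnr is the point at -0.57.

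On the axon side, 8 of 9 genes of the node, the paranode and its neighbouring juxtaparanode were lower in L-RUN than in H-RUN. Their median was -0.09 and none passed 0.3. Of these 8, Nfasc differed by only -0.004, and Ank3 read 13.26 in both libraries. The lowest was Kcna2 (-0.26), a potassium channel subunit that lies under the sheath, and the highest Sptbn4 (0.11), a spectrin of the node. Against LD, Kcna2 (-0.27) and Sptbn4 (0.04) were also the ends in L-RUN, and Sptbn4 (-0.06) and Ank3 (0.01) in H-RUN. With the length trend removed, the median of the list in L-RUN minus H-RUN was -0.06. Nfasc (0.06), Ank3 (0.07) and Sptbn4 (0.17) were then higher in L-RUN, and the other genes of the list lower. Of the 4 peripheral myelin genes, Pmp22 and Prx were expressed, and their differences in L-RUN minus H-RUN were 0.10 and -0.02. Against LD, Pmp22 and Prx read 0.07 and 0.10 in L-RUN, and -0.03 and 0.12 in H-RUN.

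Markers of other cell types also differed between L-RUN and H-RUN, and their part in the values of the members was not tested. Of 11 leptomeningeal markers, 11 were higher in L-RUN, 9 of them past 0.3, with a median of 0.72. The log2 of their summed level was 12.47 in H-RUN, 12.63 in LD, 12.87 in CE, 13.51 in RUN and 14.07 in L-RUN, and none was at 0. The list included Ptgds (2.07), which oligodendrocytes also express. Ptgds had the highest value of the list in every library, with 11.54 in H-RUN and 13.61 in L-RUN. It thus weighs most in the summed level. Of 7 markers of CA1 and CA3 pyramidal neurons, 6 were lower in L-RUN than in H-RUN, 3 of them past 0.3 (Pou3f1, Wfs1 and Bok), with a median of -0.18. Their summed level ran from 13.36 in L-RUN to 13.61 in CE. Dentate granule markers had a median of -0.11 (5 of 8 lower, from -0.32 for Prox1 to 0.22 for Plk5) and a summed level of 15.05 to 15.19. The medians were -0.08 for 7 astrocyte markers, 0.01 for 7 microglial, -0.07 for 6 endothelial, 0.03 for 5 interneuron and -0.02 for 2 expressed choroid plexus markers. No marker in these lists was at 0 in all 5 libraries.

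**Figure D5:**
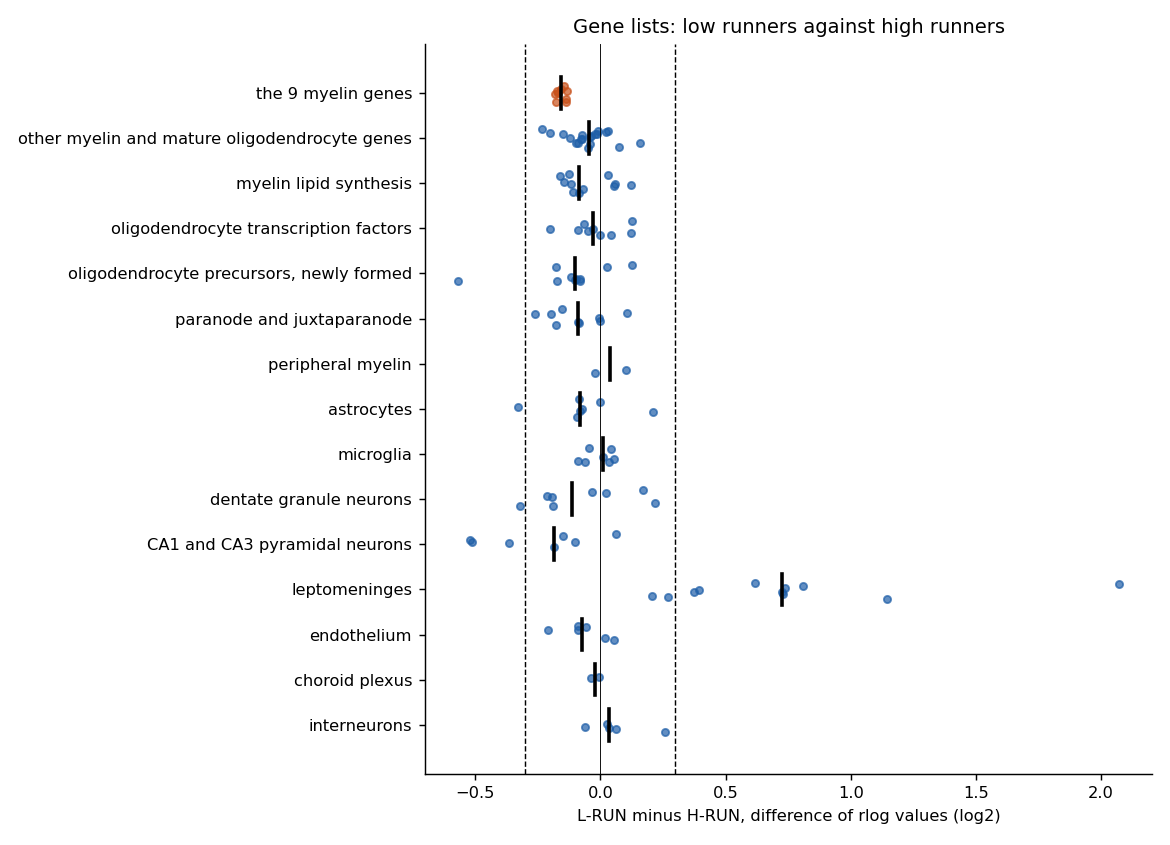
L-RUN minus H-RUN (log2) for the expressed genes of each list, 1 point per gene, with the median as a black bar and dashed lines at 0.3. The 9 myelin genes sit in a narrow group around their median of -0.16, and the leptomeningeal genes extend to 2.07 on the other side of 0.

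The same lists were read against LD, again without a test of their part in the members' values. Of the leptomeningeal markers, 4 passed 0.3 upwards in CE, 5 in RUN and 7 in L-RUN, while 2 (Ogn and Dcn) passed it downwards in H-RUN. In L-RUN, 3 CA1 and CA3 markers (Fibcd1, Wfs1 and Pou3f1), 2 astrocyte markers (Slc1a2 and Slc1a3), Prox1 of granule cells and Flt1 of endothelium were lower by at least 0.3, and Gjb6, C1ql2, Plk5 and Sst were higher. In H-RUN, Fibcd1 was lower, and Bok and C1ql2 were higher. In RUN, Fibcd1 and Flt1 were lower and C1ql2 higher, and in CE, Fibcd1, Sst and Ttr were higher. With the length trend removed, Slc1a2 (-0.22), Slc1a3 (-0.27), Gjb6 (0.29) and Sst (0.18) were short of 0.3 in L-RUN. Flt1 (-0.24) was then short of it in RUN, and Sst (0.29) and Ptgds (0.26) in CE. The leptomeningeal markers Foxc1 (0.36) and Dcn (0.33) then passed it in L-RUN. With the trend with GC content removed instead, Fibcd1 (0.23), Sst (0.28) and Ptgds (0.24) were short of 0.3 in CE. So were C1ql2 (0.296), Plk5 (0.298), Slc1a3 (-0.27) and Sst (0.27) in L-RUN, where Dcn (0.31) passed it. For microglia, 7 of 7 markers were below LD in CE and H-RUN, and 6 of 7 in RUN and L-RUN. Of expressed genes, 50.7% to 52% were below LD in these comparisons, which share the LD library. No microglial marker passed 0.3.

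The genes whose 4 differences from LD were most like the median of the members (-0.08 for CE, -0.05 for RUN, -0.14 for L-RUN, 0.02 for H-RUN) lay outside the lineage lists. By root mean square distance over these differences, the nearest of all expressed genes were Plekhm3, Ppm1e, Coa5, Ddo, Cpd, Mios, Pwwp2b, Pip5k1a, Hpcal4 and Smc6, at 0.00823 to 0.0181. Of the lineage genes, Adamts4 was nearest, at 0.0246, and was followed by Gjc3 and Fa2h. Among the members, the distance to their own median ran from 0.0166 for Mog to 0.146 for Ermn. With the mean profile in place of the median, 3 of the 10 nearest genes were shared.

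The members lie on 8 chromosomes (GENCODE M21, GRCm38). Mbp is at chromosome 18, 82475146 to 82585637, Mog at chromosome 17, 37010743 to 37023398, Mag at chromosome 7, 30899176 to 30914873, and Mobp at chromosome 9, 120149707 to 120181484. Cnp is at chromosome 11, 100574904 to 100591729, Cldn11 at chromosome 3, 31149920 to 31164324, and Opalin at chromosome 19, 41061710 to 41077113. Mal (127633226 to 127656695) and Ermn (58045113 to 58052864) are both on chromosome 2. Exons of Cnp share 154 of 3639 bases with Dnajc7 on the opposite strand, and those of Ermn share 237 of 3635 bases with Galnt5. Whether the counting used strand is not given in the sources used here, so reads in these stretches may be uncertain.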

How the data were processed

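RNA of micro-dissected DG was pooled per group and sequenced as 5 libraries. According to the paper and the submitters' processing notes, adapters were trimmed, reads were mapped to mm10 with TopHat2 2.0.10 and counted on RefSeq genes with HTSeq, and DESeq2 1.10.1 gave regularized log values. The authors deposited these values on the log2 scale, normalized over all 5 libraries and shrunk towards each gene's mean. Counts and depth were not analysed here, and the shrinkage could not be undone, so differences of lowly expressed genes are understated.

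Differences were taken between libraries for 13550 genes with a mean of at least 5, and called at the study's cut-off of 0.3. With 1 library per group no test was run. The technical SD came from RUN against the average of the linear values of L-RUN and H-RUN, as a scaled median absolute deviation in each decile of mean level. The variance of that residual was taken as 1.5 times, and of a difference as 2 times, that of a single library. Lengths and GC contents were those of the longest GENCODE M21 transcript by symbol (94.2% of expressed genes matched), and trends were removed by lowess (fraction 0.3). The other lists held symbols chosen from general knowledge. Named genes were the 9 members, list genes past 0.3 against LD, list genes with the highest and lowest difference from LD in L-RUN and H-RUN, and the 10 genes with the nearest profile. For lists of other cell types, some are given as counts. A few list genes count in the totals but are not reported here by name. Genes at the ends of L-RUN minus H-RUN, genes below the expression minimum and the nearest lineage genes were chosen after their values were seen. So were Ugt8a, Pdgfra, Sox10, Olig2, Sox8, Nfasc and Foxc1. The members and lists were chosen with earlier results of these data known. Scripts were tested on simulated data. Software comprised statsmodels 0.14.6 (lowess), pandas 2.3.3 and numpy 2.4.6 under python 3.11.15, and figures were drawn in matplotlib 3.10.9. Alternatives were other cut-offs, expression minimums, baselines, normalizations and trend removals.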

Additional observations from a re-analysis of the deposited data

How the results depend on the processing

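No paired analysis was possible because each group holds 1 library, and for the same reason no library could be left out. No member passed 0.3 in any of the 6 comparisons under any normalization, expression minimum, baseline or trend removal tried. With a cut-off of 0.2, 2 members (Mbp and Mag) passed in L-RUN minus LD (9.93% of expressed genes) and 1 (Ermn) in CE minus RUN (3.48%), and with 0.4 none did. With the cut-off of 0.1, added after the data were seen, passed in either direction, the counts of the 9 members against LD were 6 for L-RUN (36.8% of expressed genes), 4 for RUN (27.3%), 3 for CE (26.8%) and 2 for H-RUN (21.1%). They were 9 in L-RUN minus H-RUN (24.7%) and 2 in CE minus RUN (20.2%), so that those for CE, H-RUN and CE minus RUN were near the share of expressed genes. The median of the members in L-RUN minus H-RUN stayed between -0.17 and -0.15, and every member with a value was below 0 in each of the 7 alternatives (Opalin has none at a minimum mean of 7). In L-RUN minus LD the median lay between -0.16 and -0.11, and in CE minus LD between -0.09 and -0.06. In RUN minus LD it lay between -0.10, with the length trend removed, and -0.03, with LD and CE averaged as baseline. In H-RUN minus LD it lay on both sides of 0, from -0.01 to 0.04. Trends with GC content and expression level were added after the data were seen. Over all expressed genes, 76 were higher and 132 lower by 0.3 in L-RUN minus H-RUN, against 240 and 428 at 0.2 and 37 and 44 at 0.4. For Mbp, quantile normalization gave -0.11 in L-RUN minus H-RUN, against -0.17, and -0.18 in L-RUN minus LD, against -0.23. With the mixture taken on the log2 scale, the residual SD was 0.0316. The values have no replicate check, and the precision from counting is unknown.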
